A study of Mus musculus with 6 samples.

Results

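The 30 genes described here make cholesterol, sense its level, or move and store it, and were taken by name, in pathway order, from the 55416 genes counted in the series. They comprise 8 genes of the mevalonate and isoprenoid steps, 11 of the squalene and sterol steps, 5 that control the SREBP transcription factors and 6 of cholesterol transport, export and storage. Each matched exactly 1 gene identifier. RNA came from cells labelled as mouse oligodendrocyte precursors, taken from cortex on postnatal day 11, with 4 to 6 mice pooled per sample. All mice carried Pdgfra-Cre and the RosaEYFP reporter. The 3 control samples were Ift88 fl/wt and the 3 cKO samples Ift88 fl/fl, so the controls also carried Cre, the reporter and 1 floxed copy of Ift88, a gene needed to build primary cilia. The Pdgfra promoter is active in oligodendrocyte precursors and also in fibroblast-like cells outside the lineage. Because each sample is a pool, p-values measure the spread between pools.

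Cholesterol is built from acetyl-CoA. The mevalonate pathway yields isoprenoid units, these join to squalene, and squalene is closed to a ring and trimmed to cholesterol. When membrane cholesterol is low, SCAP carries SREBP proteins out of the endoplasmic reticulum, and their freed amino-terminal parts switch on the genes of synthesis, while INSIG proteins hold SCAP back when cholesterol is ample. Brain cholesterol is made locally because lipoproteins of the blood do not cross the blood-brain barrier, and myelinating glia need large amounts of it.

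The 5 deeper libraries held 11773548 to 13909236 counts and cKO replicate 2 held 568509. Of these 5, cKO replicate 1 had the most counts but the fewest genes with a count, 14047 against 15190 to 16252. It had a count for 23 members, against 27 or 28 in the other deeper libraries. Of the 12833 genes tested, 79.3% reached 20 counts in cKO replicate 1, against 86.8% to 92.8% in the other deeper libraries. For the members these shares were 73.3% and 86.7% to 93.3%. Levels are given as CPM, each count divided by its library total and multiplied by 1000000. A count of 0 allows up to 0.216 to 0.255 CPM in a deeper library but up to 5.28 CPM in cKO replicate 2, counting error only. Ift88 itself had 143, 32 and 167 counts in the control pools, against 1, 0 and 305 in the cKO pools. The floxed exons are not named in the labels and a tag at the 3' end can lie outside them, so these counts do not check the genotypes. Of 12 precursor markers, Sox10, Tnr, Pcdh15 and Gpr17 were at 0 counts in all 6 libraries, and the 12 summed to 232 to 480 CPM in controls and 225, 7.04 and 222 CPM in cKO replicates 1 to 3. Taken singly, 3 of 5 tested had a positive log2 fold change (median 0.11) with all 6 libraries, against 33.7% of all genes (median -0.44). Without cKO replicate 2, 4 of 6 were positive (median 0.97), against 47.9% (median -0.06). Of these 6, 3 lay wholly higher in cKO and 1 wholly lower, against 13.0% and 12.6% of all genes. An unadjusted p under 0.05 by edgeR was seen for 1 of the 6, lower in cKO (6.09% of all genes). The 10 neuron markers summed to 2602 to 8088 CPM in controls. The labelled cell type is thus borne out by only part of its markers. In such bulk samples, fewer cells of a type and less RNA per cell cannot be told apart.

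Most of the pathway was measurable in the 5 deeper libraries. Of the 30 members, 20 reached 20 counts in every one of these, 8 had fewer than 20 in 1 or more of them, and 2 had 0 counts in all 6 libraries. Over all 55416 genes, 8241 reached 20 counts in every deeper library and 35077 had 0 in all 6. The 2 without a count were Idi1 and Fdps, which encode consecutive enzymes of isoprenoid synthesis. Summed over the 30 members the level was 1463, 2112 and 2171 CPM in control replicates 1 to 3 and 2633, 1451 and 2110 CPM in cKO replicates 1 to 3. The groups overlapped.

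**Figure D1:**
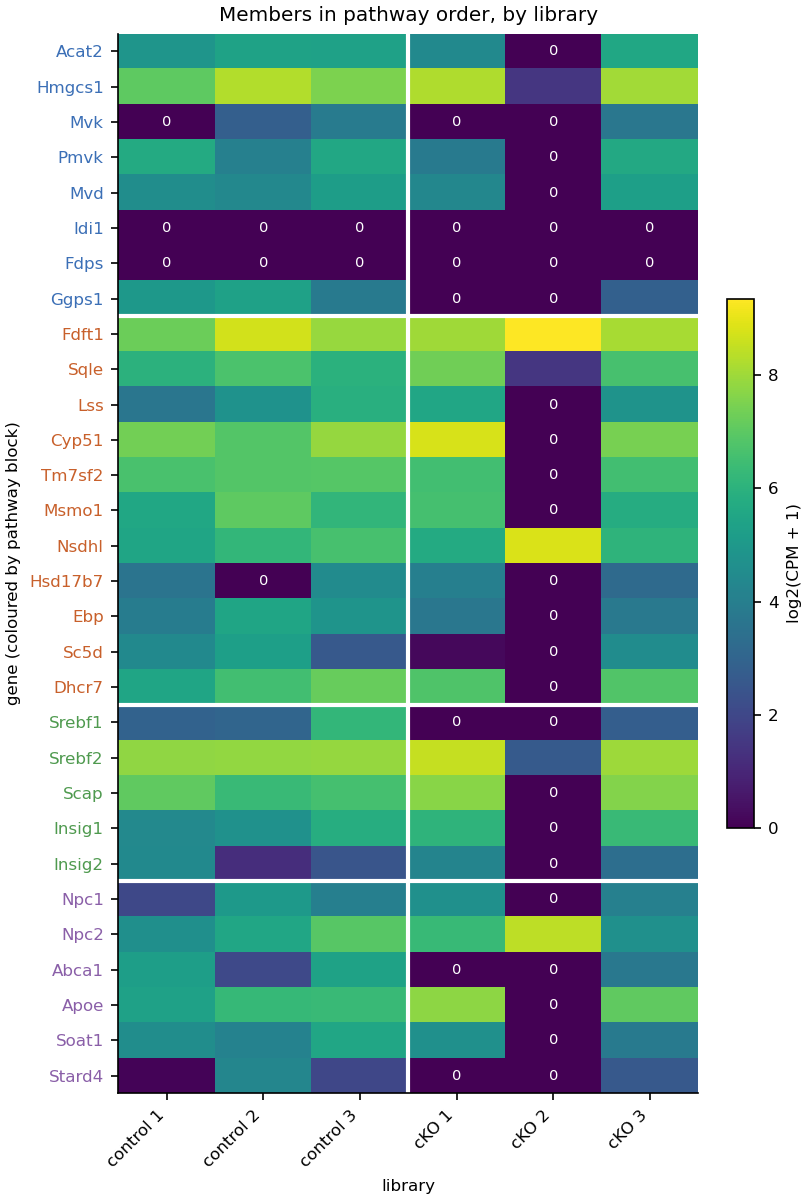
Level of each of the 30 members (rows, in pathway order, names coloured by block) in each library (columns), as log2(CPM + 1), with a printed 0 where the count was 0. Idi1 and Fdps are at 0 in every library, and the cKO 2 column is at 0 for 24 of the 30 rows.

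The first block leads from acetyl-CoA units to the isoprenoid building blocks. Hmgcs1, the enzyme that makes HMG-CoA, had the highest level of the block, with 131, 306 and 182 CPM in the control pools, against 303, 1.76 and 264 CPM in the cKO pools. The 2 deeper cKO libraries lay inside the control range. Acat2, the cytosolic thiolase of the first condensation, had 28.6, 41.2 and 39.5 CPM against 20.7, 0 and 46.5 CPM. Pmvk and Mvd, the enzymes that phosphorylate and decarboxylate mevalonate products, spanned 13.4 to 51.9 CPM and 19.2 to 38.2 CPM over the 5 deeper libraries, without separating the groups. Mvk, mevalonate kinase, had 0, 77 and 187 counts in the control pools, against 0, 0 and 141 counts in the cKO pools, so each group held a deep library with none.

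Ggps1, which makes the geranylgeranyl chain used to anchor small GTPases, was the member of this block whose groups separated. It had 30.4, 39.7 and 13.2 CPM in the control pools, against 0, 0 and 6.37 CPM in the cKO pools. All 3 cKO values lay below all 3 control values. On the log2 scale the fitted difference was -3.62 (SE 2.06, adjusted p = 0.9999, edgeR quasi-likelihood, Benjamini-Hochberg adjustment), and -3.17 (SE 1.94, adjusted p = 0.869, same test) without cKO replicate 2. It was -11.25 without cKO replicate 3, a fitted value that depends on the prior count because both remaining cKO libraries held 0, -5.55 with limma-voom and -6.80 with the replicate number as a block.

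Idi1 and Fdps call for a separate look, because they stand between steps that were all measured. Idi1, the isomerase that interconverts the isoprenoid units (chromosome 13, 8935537 to 8942487, GRCm39), shared none of its last 500 exon bases with another gene, and no other annotated transcript matched those of its longest transcript at 95% identity over 100 bases. Fdps, which makes farnesyl diphosphate (chromosome 3, 89000895 to 89009266, GRCm39), shared 55.0% of its last 500 exon bases with Gm43738, an overlapping gene that also had 0 counts. Both lie on the minus strand, and how reads falling on both were assigned was not tested. Fdps further matched 5 annotated processed pseudogenes, copies of its spliced messenger RNA inserted elsewhere in the genome. The last 120 coding bases of Fdps, ending in the stop codon (positions 1208 to 1327 of its longest GENCODE M21 transcript of 1382 bases), are shown beside the corresponding stretch of the 2 copies with the most reads. Capitals mark bases that differ from Fdps.
Fdps: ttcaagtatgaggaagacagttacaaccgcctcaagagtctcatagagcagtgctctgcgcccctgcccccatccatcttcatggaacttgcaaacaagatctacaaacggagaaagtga
Gm3571: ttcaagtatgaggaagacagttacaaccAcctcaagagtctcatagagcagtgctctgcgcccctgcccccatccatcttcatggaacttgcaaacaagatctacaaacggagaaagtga
Gm8163: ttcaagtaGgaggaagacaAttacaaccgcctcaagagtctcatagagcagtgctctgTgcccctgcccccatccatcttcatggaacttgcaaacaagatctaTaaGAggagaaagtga
Gm3571 differs from Fdps at 1 of 120 bases (G29A, Fdps base first, counted from 1 at the 5' end of the stretch). Gm8163 differs at 6 of 120 (T9G, G20A, C59T, C105T, A108G and C109A).

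Reads were counted at the copies. Gm3571 (chromosome 10, 93614522 to 93615581) had 307, 773 and 332 counts in the control pools, against 432, 0 and 822 in the cKO pools. Gm8163 (chromosome X, 59769995 to 59771054) had 536, 854 and 1073 counts in the control pools, against 657, 190 and 864 in the cKO pools. The matched bases were 445 of the last 500 for each, at 99.1% and 95.7% identity. Gm5873 and Gm7979 had at most 63 counts in a library and Gm48326 had 0. Summed, the 5 copies gave 63.0, 128 and 108 CPM in the control pools, against 78.3, 334 and 149 CPM in the cKO pools. Whether these reads derive from Fdps messenger RNA was not tested. Among 21792 protein-coding genes compared in the same way, 59.6% of the 4151 with such a match were at 0 counts in all 6 libraries, against 34.5% of the 17641 without one. Where the matching gene itself reached 20 counts throughout the 5 deeper libraries, 337 of 1066 genes (31.6%) were at 0. These sets were not matched for level or for length of match. The shares therefore say nothing on the cause of the Fdps zeros.

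**Figure D2:**
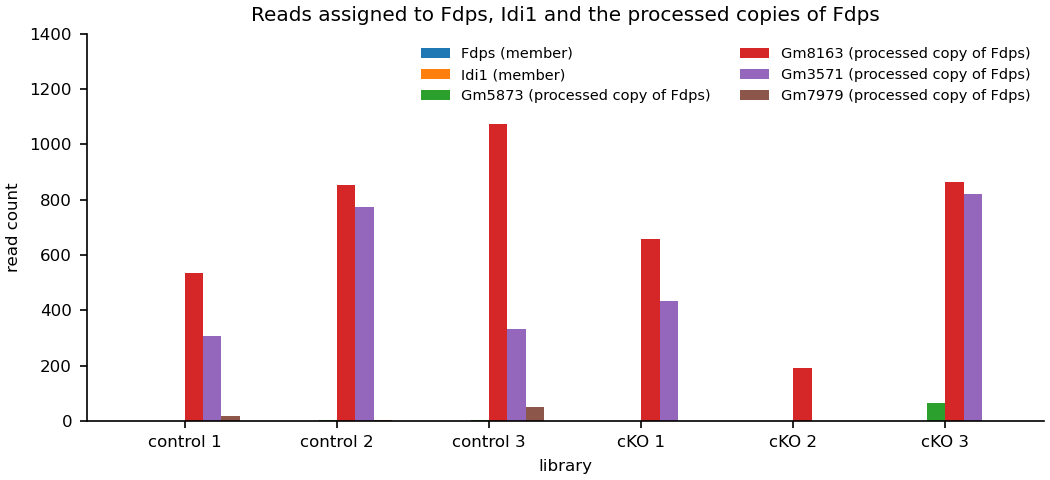
Read counts (vertical axis) of Fdps, Idi1 and 4 processed copies of Fdps in each library (groups of bars). Fdps and Idi1 have no bar in any library, while Gm8163 has 190 to 1073 counts.

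Beyond Fdps, 5 members resembled or overlapped another gene at their ends. Fdft1 shared 100% of its last 500 exon bases with Ctsb, Npc1 38.4% with Rmc1, Cyp51 33.2% with Akap9 and Srebf1 21.8% with Rai1. Lss overlapped no gene but had a near-identical stretch in 1 other. No strand option is named in the counting, so the levels of the 4 overlapping members are uncertain. The bearing of the stretch on the Lss level was not tested.

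The squalene and sterol block was the most abundant, with 670, 1151 and 1075 CPM in the control pools, against 1276, 1106 and 943 CPM in the cKO pools. Fdft1, squalene synthase, had the highest mean of all members over the 5 deeper libraries, with 151, 421 and 239 CPM in the control pools, against 259, 651 and 280 CPM in the cKO pools. Sqle, the epoxidase that adds oxygen to squalene, had 63.1, 103.8 and 61.1 CPM against 159, 1.76 and 98.4 CPM. Its 2 deeper cKO libraries lay at the upper end of the controls or above. Cyp51, which removes a methyl group from lanosterol, had 161, 114 and 231 CPM against 437, 0 and 172 CPM, and only cKO replicate 1 exceeded the controls. Without cKO replicate 2, the log2 fold change was 0.78 for Sqle (SE 0.43, adjusted p = 0.818) and 0.90 for Cyp51 (SE 0.47, adjusted p = 0.780) by edgeR quasi-likelihood.

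Tm7sf2, a sterol reductase acting after Cyp51, was the steadiest member. It had 102, 115 and 118 CPM in the control pools, against 90.6, 0 and 91.1 CPM in the cKO pools, a 1.30-fold range over the 5 deeper libraries. Both deeper cKO values lay just below the controls. The log2 fold change without cKO replicate 2 was -0.28 (SE 0.33, adjusted p = 0.9999, edgeR). Ebp, the sterol isomerase, likewise had 14.4, 43.6 and 27.5 CPM against 12.1, 0 and 12.8 CPM, with no overlap. For Ebp the fitted log2 difference without cKO replicate 2 was -1.18 (SE 0.86, adjusted p = 0.946, edgeR).

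The other sterol enzymes did not separate the groups in the 5 deeper libraries. Lss, which closes the ring of squalene epoxide, spanned 11.7 to 58.0 CPM. Msmo1, the sterol methyl oxidase, spanned 46.6 to 129 CPM, Nsdhl, the decarboxylating sterol dehydrogenase, 44.0 to 98.6 CPM and Dhcr7, which catalyses the last step of 1 branch, 44.7 to 145 CPM. Hsd17b7, a sterol ketone reductase, had 0 counts in control replicate 2 and 8.41 to 21.6 CPM in the other 4. Sc5d, the desaturase before Dhcr7, had 281, 481 and 70 counts in the controls but 2 counts in cKO replicate 1 and 260 in cKO replicate 3.

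The SREBP control block contained members that lay apart in opposite directions. Srebf2, the SREBP gene that mainly drives cholesterol synthesis, was nearly constant in the controls at 221, 226 and 232 CPM and had 366, 5.28 and 254 CPM in the cKO pools. Scap, the escort protein, had 133, 79.2 and 96.6 CPM against 206, 0 and 195 CPM. Insig1, which retains SCAP and is itself an SREBP target, had 20.4, 25.2 and 55.4 CPM against 65.9, 0 and 79.4 CPM. For all 3 genes both deeper cKO libraries lay above every control, while cKO replicate 2 lay below.

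Without cKO replicate 2, the log2 fold change was 0.48 for Srebf2 (SE 0.29, adjusted p = 0.869), 0.98 for Scap (SE 0.35, adjusted p = 0.767) and 1.14 for Insig1 (SE 0.55, adjusted p = 0.767) by edgeR quasi-likelihood, Benjamini-Hochberg adjustment. With all 6 libraries the same test gave -0.11 (SE 1.31), 0.39 (SE 1.62) and 0.55 (SE 1.72), each with an adjusted p of 0.9999. Without cKO replicate 1 they were -0.83, -0.0955 and 0.25, and Scap and Insig1 were negative with limma-voom and with the replicate number as a block (-0.86 and -0.67 for Scap, -0.0829 and -0.35 for Insig1). Srebf1, the SREBP gene tied more to fatty acid synthesis, went the other way. It had 6.59, 7.21 and 72.4 CPM in the control pools, against 0, 0 and 5.86 CPM in the cKO pools, so control replicate 3 alone set its control mean of 28.7 ± 37.8 CPM (SD, n = 3). By edgeR, Srebf1 differed by -3.71 on the log2 scale (SE 2.08, adjusted p = 0.9999) with all 6 libraries and by -1.80 without control replicate 3. Without cKO replicate 3, where both remaining cKO libraries held 0, the fitted value was -11.23 and depends on the prior count. Insig2, the paralogue of Insig1, had 281, 17 and 61 counts in the control pools, against 245, 0 and 112 in the cKO pools, with no separation.

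**Figure D3:**
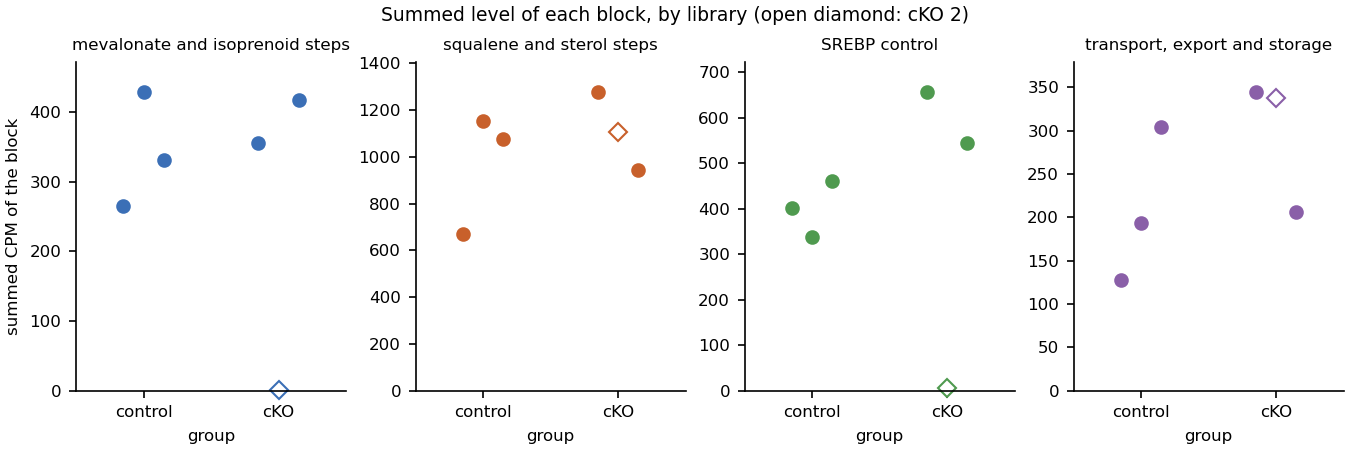
Summed CPM (vertical axes, from 0) of the 4 blocks in each control and cKO library (points), with cKO 2 as an open diamond. In the SREBP control block the 2 deeper cKO libraries, at 656 and 544 CPM, lie above the controls at 339 to 460 CPM, and cKO 2 lies at 5.28 CPM.

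Among the transport genes, Apoe, which encodes the main lipoprotein apolipoprotein of the brain, had the largest positive difference once cKO replicate 2 was left out. It had 40.3, 76.4 and 78.9 CPM in the control pools, against 217, 0 and 135 CPM in the cKO pools. Both deeper cKO libraries lay above every control, and cKO replicate 2 held no count. The group means were 65.2 ± 21.6 CPM in controls (SD, n = 3) and 176 CPM over the 2 deeper cKO libraries. The log2 fold change was 1.46 without cKO replicate 2 (SE 0.43, adjusted p = 0.767, edgeR) and 0.86 with all 6 libraries (SE 1.72, adjusted p = 0.9999, edgeR). It was 0.0328 without cKO replicate 1, -0.34 with limma-voom and -0.0307 with the replicate number as a block, and its adjusted p over the alternatives ran from 0.635 to 1.

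Apoe is also a gene of astrocytes, microglia and fibroblast-like cells, and markers of these were present unevenly. The 10 astrocyte markers, 7 of them at 20 counts or more in each deeper library, summed to 758 to 1219 CPM in controls and to 933, 682 and 888 CPM in the cKO pools. Singly, with all 6 libraries, 7 of 9 tested had a negative log2 fold change (median -1.23), against 66.3% of all genes (median -0.44). Of these 9, 4 lay wholly lower in cKO and 1 wholly higher, against 11.1% and 1.33% of all genes. In the 5 deeper libraries, 5 of 10 lay wholly lower and 2 wholly higher, against 12.6% and 13.0% of all genes. There, 3 of the 10 had an unadjusted p under 0.05 by edgeR (6.09% of all genes), all lower, with 0 called (0.00687%). The 7 fibroblast and leptomeningeal markers summed to 1055, 2266 and 3018 CPM in controls and to 5766, 765 and 2967 CPM in the cKO pools. Singly, 5 of these 7 had a positive log2 fold change with all 6 libraries, against 33.7% of all genes. Of the 7, 0 lay wholly higher or lower in cKO, against 1.33% and 11.1% of all genes. In the 5 deeper libraries, 6 were positive and 1 negative, against 47.9% and 52.1% of all genes. Of the 7, 3 lay wholly higher in cKO and 0 wholly lower, against 13.0% and 12.6% of all genes. There, 2 of the 7 had an unadjusted p under 0.05 by edgeR (6.09% of all genes, 3.06% higher), all higher, with 0 called (0.00687%). Of 9 microglia markers, Cx3cr1, Tmem119, Aif1, C1qa and Trem2 were at 0 in all 6 libraries, and the 9 summed to 23.5 to 77.9 CPM in controls and 58.6, 679 and 60.7 CPM in the cKO pools. Only 1 of the 9 reached 20 counts in every deeper library, and only 1 did so in cKO replicate 2. The sum of 8 choroid plexus and ependymal markers was 230, 102 and 22.5 CPM in controls. In the cKO pools it was 445, 45940 and 672 CPM. Most of the cKO sum was 1 gene, Ttr, named after its values were seen. Ttr had 25.1, 7.37 and 0.147 CPM in the control pools, against 376, 45940 and 574 CPM in the cKO pools. Kl and Kcne2 were at 0 in all 6 libraries. Of the 3 markers tested, 1 had a positive and 2 a negative log2 fold change, with and without cKO replicate 2. The part of these cells in the Apoe values was not tested.

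Abca1, the pump that loads cholesterol onto apolipoproteins, had 37.0, 3.21 and 41.2 CPM in the control pools, against 0, 0 and 12.5 CPM in the cKO pools, and control replicate 2 lay inside the cKO range. Npc1 and Npc2, partners in cholesterol exit from lysosomes, spanned 3.08 to 32.6 CPM and 24.03 to 120 CPM over the 5 deeper libraries without separating the groups. Soat1, which esterifies cholesterol for storage, spanned 13.2 to 45.2 CPM. Stard4, a cytosolic sterol carrier, had 1, 238 and 41 counts in the control pools, against 0, 0 and 61 in the cKO pools.

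No member passed the test in either direction. With all 6 libraries 0 of 28 tested members had an adjusted p under 0.05 by edgeR, against 0.0156% of the 12833 genes tested (0.00779% higher and 0.00779% lower), and 0 members had an unadjusted p under 0.05 (2.83% of all genes). DESeq2 also called 0 members (0.480% of the 12289 genes with an adjusted p) and had 2 at an unadjusted p under 0.05 (6.59%). It gave no adjusted p for Srebf1. Limma-voom called 0 (0.109%) and had 3 at an unadjusted p under 0.05 (6.41%). Without cKO replicate 2 edgeR again called 0 of 28 (0.00687% of 14562 genes), and Scap and Apoe had an unadjusted p under 0.05, both higher in cKO, against 6.09% of all genes in either direction and 3.06% higher. Over all the alternatives run, the lowest adjusted p of any member was 0.3996 by edgeR, for Mvk, Ggps1, Sc5d, Srebf1, Abca1 and Stard4 without cKO replicate 3. That fit left only the shallow cKO replicate 2 and cKO replicate 1, the deeper library with the fewest genes, in the cKO group. It gave 4 of 28 members an unadjusted p under 0.05 by edgeR (Ggps1, Sc5d, Srebf1 and Abca1). Its median log2 fold change was -0.54 over the members and -0.90 over all genes. The median log2 fold change was -0.36 over the tested members and -0.44 over all genes with 6 libraries, and -0.05 and -0.06 without cKO replicate 2. Of the 28 members, 9 had a positive value with 6 libraries and 14 without cKO replicate 2, against 33.7% and 47.9% of all genes.

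Groups that did not overlap were about as frequent among members as elsewhere. Without cKO replicate 2, 4 of 28 members lay wholly higher in cKO (Srebf2, Scap, Insig1 and Apoe) against 13.0% of all genes, and 4 lay wholly lower (Ggps1, Tm7sf2, Ebp and Srebf1) against 12.6%. With all 6 libraries, 0 lay wholly higher against 1.33% of genes, and those 4 lower members still did against 11.1%, cKO replicate 2 being at 0 for each. The median coefficient of variation over the 5 deeper libraries was 0.538 for the 28 tested members, and 0.569 for the 10733 genes tested within the same range of mean CPM.

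**Figure D4:**
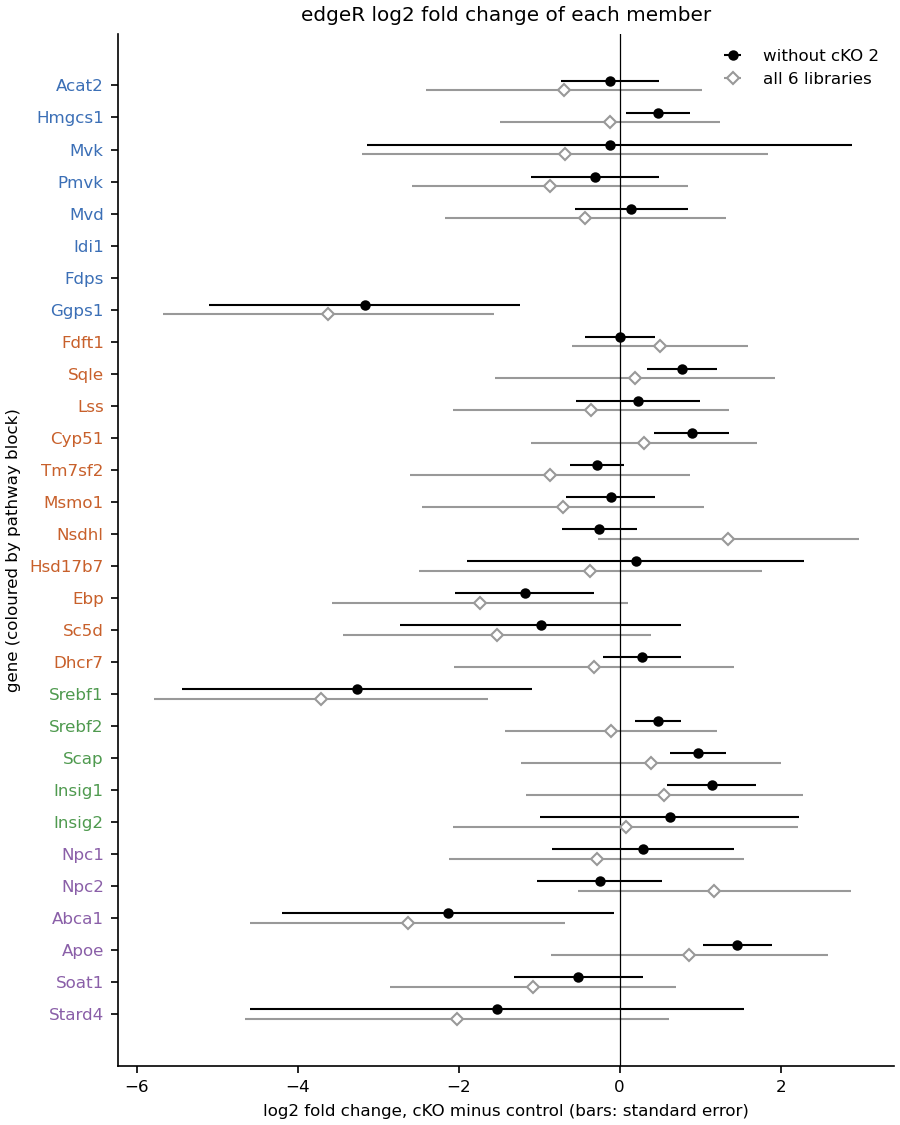
log2 fold change of each tested member, cKO minus control (horizontal axis), with its standard error as bars, for the 5 deeper libraries (black) and all 6 (grey diamonds). The bars are wider with cKO 2 for most members, as for Scap, whose SE is 0.35 without it and 1.62 with it. They are narrower with it for Mvk, Srebf1, Abca1 and Stard4.

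The shallow library cKO replicate 2, in which Ttr alone had 45940 CPM, held the pathway in only 3 genes at 20 counts or more. Fdft1 had 370 counts there, Nsdhl 258 and Npc2 192. Srebf2 had 3 counts, Hmgcs1 and Sqle 1 each, and the other 24 members 0. Scaled to its depth, the mean level in the 5 deeper libraries would give at least 20 counts for 15 members, and 12 of these had fewer than 20, or 80.0%. Over all genes the corresponding share was 3941 of 5085, or 77.5%, so the members followed the library as a whole. The 3 detected genes in turn exceeded the deeper libraries: Nsdhl had 454 CPM there against at most 98.6 CPM elsewhere.

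**Figure D5:**
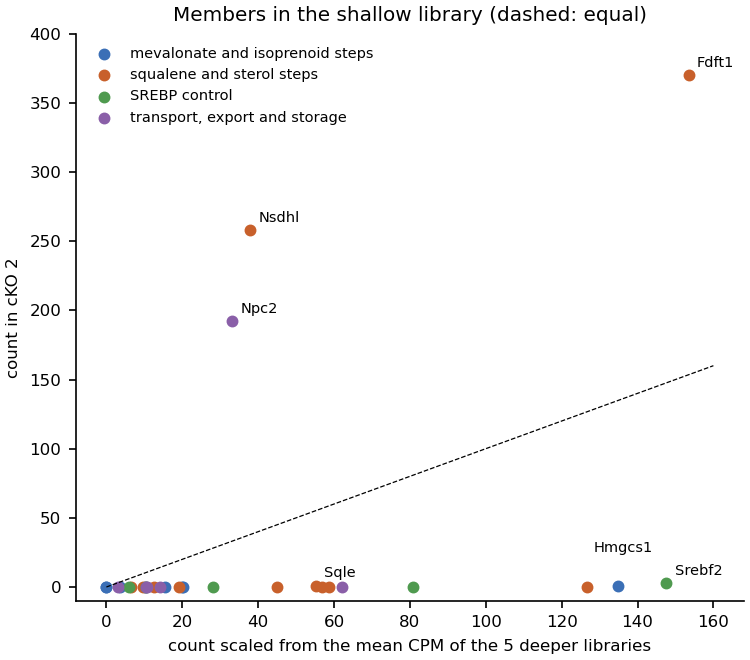
Count of each member in cKO 2 (vertical axis) against the count scaled from its mean CPM in the 5 deeper libraries (horizontal axis), coloured by block, with the line of equality dashed. Fdft1, Nsdhl and Npc2 lie above the line and the rest at or near 0.

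Other genes of sterol and lipid metabolism were read from 6 lists chosen by role, of which 70 of 71 genes matched an identifier by symbol. Of 60 tested, 0 passed in either direction by edgeR, DESeq2 or limma-voom, against 0.0156%, 0.480% and 0.109% of all genes. At an unadjusted p under 0.05 there were 0, 1 and 5, against 2.83%, 6.59% and 6.41% of all genes. DESeq2 gave no adjusted p for Icmt, which is among the genes of these lists. Without cKO replicate 2, edgeR called 0 of 61 (0.00687% of all genes), and 1 had an unadjusted p under 0.05 (6.09% of all genes). That gene, named after its value was seen, was Mbtps1, the first protease to cut SREBP, with 130, 117 and 108 CPM in the control pools, against 216, 1.76 and 187 CPM in the cKO pools. In the same comparison it was 1 of 10 among the 61 that lay wholly higher in cKO, against 13.0% of all genes. Erlin1 and Erlin2, which take part in the breakdown of sterol-regulated proteins, spanned 22.8 to 51.8 CPM and 21.2 to 81.3 CPM over the 5 deeper libraries.

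The genes of fatty acid synthesis that SREBP1 controls had values in both directions. Of 11 tested, 10 had a negative log2 fold change with all 6 libraries (median -1.11), where 66.3% of all genes did (median -0.44). With cKO replicate 2 left out, 8 were negative (median -0.52), against 52.1% of all genes (median -0.06). In that comparison 3 of the 11 lay wholly lower in cKO and 2 wholly higher, against 12.6% and 13.0% of all genes. The 2 higher, named after their values were seen, were Acly and Acss2, which supply acetyl-CoA. Acly had 385, 433 and 471 CPM in the control pools, against 505, 1.76 and 534 CPM in the cKO pools. Acss2 had 62.8, 74.6 and 98.9 CPM against 99.3, 1.76 and 151 CPM. Scd1, a fatty acid desaturase, had 14.7, 58.3 and 63.0 CPM in the control pools, against 11.6, 0 and 15.5 CPM in the cKO pools. Elovl6, an elongase, had 24.1, 23.3 and 37.4 CPM against 3.02, 0 and 13.3 CPM, with no overlap. Without cKO replicate 2 the log2 fold changes were -1.72 (SE 0.80, adjusted p = 0.767) and -1.79 (SE 1.004, adjusted p = 0.820) by edgeR.

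Genes around the sterol-sensing LXR receptors, which also control Abca1 and Srebf1, included 2 that were nearly without counts in cKO replicate 1. In that library only 79.3% of all tested genes reached 20 counts. Abcg1, a cholesterol exporter, had 374, 318 and 722 counts in the control pools, against 1, 0 and 145 in the cKO pools. Nr1h2, which encodes LXR beta, had 735, 876 and 1258 counts against 2, 0 and 818. Of 9 tested genes of this list 0 passed, and their median log2 fold change was -0.62 with all 6 libraries and -0.03 without cKO replicate 2. In cholesterol uptake, trafficking and turnover, Cyp46a1, the neuronal enzyme that turns cholesterol into an exportable form, had 62, 0 and 59 counts in the control pools, against 610, 0 and 349 in the cKO pools (log2 fold change 3.66 without cKO replicate 2, SE 1.72, adjusted p = 0.767, edgeR). The neuron markers summed to 9016 and 9192 CPM in those 2 cKO libraries and to 2602 to 8088 CPM in the controls, and their part in the Cyp46a1 values was not tested. Osbp, an oxysterol binding protein, had 75.2, 29.4 and 109 CPM against 137, 660 and 139 CPM. Of the isoprenoid branch, Icmt, which methylates prenylated proteins, had 431 counts in cKO replicate 2, or 758 CPM, against 23.3 to 44.96 CPM elsewhere, and Dolk, dolichol kinase, had 82.3, 134 and 103 CPM against 77.1, 1.76 and 63.5 CPM. Lbr, a sterol reductase of the nuclear envelope, had a log2 fold change of -0.47 without cKO replicate 2 (SE 0.66, adjusted p = 0.9999, edgeR).

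The start sites of the members were compared as a property apart from the counts. RefSeq promoter windows of GRCm38.p6, from 250 bases before to 50 after a start site, were at hand for 25 of the 30 members. Fdps, Fdft1, Sqle, Npc1 and Stard4 had none and were not searched. The CCAAT box (CCAAT, either strand), which NF-Y binds beside SREBP at sterol genes, was in a window of 21 of the 25, against 41.1% of 27025 genes. A core of the sterol regulatory element (TCACNCCAC, either strand) was in 1 of the 25, Hmgcs1, against 1.44% of genes. The 27025 genes are all those with a window, whether or not they had counts, so they are not matched to the members. The Hmgcs1 window (chr13:119690101-119690400, plus strand) and that of Insig1 (chr5:28071162-28071461, plus strand) are shown because the first holds both motifs and the second belongs to the member of the SREBP control block with the largest positive value without cKO replicate 2. Capitals mark the matches, with CCAAT read as ATTGG on the opposite strand.
Hmgcs1: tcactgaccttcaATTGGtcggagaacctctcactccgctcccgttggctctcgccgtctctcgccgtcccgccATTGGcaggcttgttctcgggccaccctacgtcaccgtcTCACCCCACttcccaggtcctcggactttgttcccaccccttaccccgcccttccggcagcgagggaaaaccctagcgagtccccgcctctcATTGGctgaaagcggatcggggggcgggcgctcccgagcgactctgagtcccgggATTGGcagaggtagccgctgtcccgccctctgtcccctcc
Insig1: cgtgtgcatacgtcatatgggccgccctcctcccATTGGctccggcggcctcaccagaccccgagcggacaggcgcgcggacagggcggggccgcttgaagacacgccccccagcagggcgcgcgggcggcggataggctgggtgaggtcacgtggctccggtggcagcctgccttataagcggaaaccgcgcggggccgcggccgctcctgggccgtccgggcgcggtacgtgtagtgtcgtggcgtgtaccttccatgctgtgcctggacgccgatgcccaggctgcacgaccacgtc
Hmgcs1 holds 4 CCAAT matches and Insig1 1. A match of letters is no measure of binding, and a window without a match says nothing on the factor.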

How the data were processed

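The labels' protocols name the QuantSeq 3' FWD kit. The authors deposited raw counts by gene from featureCounts 2.0.0 on exons of Ensembl release 104 (GRCm39), with no strand or multi-mapping option named, per the file headers. The submitters' processing notes list STAR, FastQC and DESeq2 but not their roles; molecular identifiers are not mentioned in the sources used here. A 3' tag count does not scale with transcript length, so CPM was not divided by length.

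After filterByExpr, 12833 of 55416 genes were TMM-scaled and fitted with glmQLFit (robust) and glmQLFTest in edgeR 4.0.16 under R 4.3.3, two-sided, without covariates. Adjusted p under 0.05 was the threshold, and a standard error was the fold change divided by the square root of F. Alternatives used RLE or upper-quartile scaling, DESeq2 1.42.0, limma 3.58.1 (voom), other filters, the replicate number as a block, and leaving out each library. The edgeR fit was tested on simulated data. Apart from genes set to change, the simulated libraries shared a common mean profile, so the test did not imitate the many zeros of cKO replicate 2. Symbols (52083 identifiers) and biotypes came from GENCODE M21. Matches between transcripts used blastn 2.17.0, and shared exon bases bedtools 2.31.1.

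All 30 members are named, with the 2 genes of smallest p in each other list; 1 gene so selected is not reported here. Members and lists were chosen with earlier results of these data known. The comparison of Fdps with its copies and the motif search were chosen after values were seen.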

Additional observations from a re-analysis of the deposited data

How the results depend on the processing

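Under every one of the 13 alternatives run, 0 members and 0 other pathway genes passed the threshold. With DESeq2, Srebf1 and Icmt had no adjusted p and so could not pass. Counts over all genes moved: 1 higher and 1 lower in the reported comparison became 14 and 2 with RLE scaling, 0 and 0 with upper-quartile scaling, 7 and 52 with DESeq2, and 6 and 8 with limma-voom. The higher count was 22 without a filter, 2 with a filter of 5 CPM in 3 samples, and 0 to 6 when 1 library was left out. The replicate block gave 0 higher genes. The numbers do not pair the samples by a stated litter or day: correlations of same-numbered samples were 0.0791, 0.0511 and 0.0112, and control replicate 3 correlated best with cKO replicate 2. Upper-quartile scaling moved the median log2 fold change of all genes from -0.44 to -0.01 and that of the members to -0.01, with 14 of 28 members positive. The cause of these shifts was not tested.

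Of 531 fold changes of 41 named genes under alternatives, 481 kept their direction and 50 reversed. With limma-voom the reversed log2 fold changes were -2.32 for Ift88, -0.52 for Sqle, -1.16 for Cyp51, 1.86 for Hsd17b7, -0.86 for Scap, -0.0829 for Insig1, 0.15 for Npc1, -0.34 for Apoe and -0.62 for Mbtps1. With the replicate block they were -3.71 for Ift88, -0.45 for Sqle, -1.12 for Cyp51, -0.67 for Scap, -0.35 for Insig1, -0.30 for Insig2, -0.0307 for Apoe and -0.67 for Mbtps1. With upper-quartile scaling they were 0.11 for Hmgcs1, 0.000396 for Lss, 0.012 for Dhcr7, 0.25 for Srebf2 and 0.0281 for Npc1. Srebf2 had 0.0123 with RLE scaling and 0.0152 with DESeq2. Leaving out 1 library gave ranges of -6.78 to 0.65 for Ift88, -0.66 to 0.47 for Hmgcs1, -9.13 to 0.37 for Mvk, -1.32 to 0.15 for Mvd, -0.63 to 0.78 for Sqle, -1.20 to 0.34 for Lss, -0.98 to 0.90 for Cyp51, -0.25 to 1.74 for Nsdhl, -1.27 to 0.56 for Hsd17b7, -0.75 to 0.28 for Dhcr7, -0.83 to 0.48 for Srebf2, -0.10 to 0.98 for Scap, -0.84 to 1.71 for Insig2, -1.06 to 0.62 for Npc1, -0.25 to 1.94 for Npc2, -9.32 to 0.25 for Stard4, -11.25 to -3.01 for Ggps1, -11.23 to -1.80 for Srebf1, -11.18 to -2.04 for Abca1, 0.0328 to 1.46 for Apoe and -0.35 to 0.78 for Mbtps1. Adjusted p over the alternatives ran from 0.635 to 1 for Apoe and from 0.3996 to 1 for Ggps1 and Srebf1. The floor of 5.28 CPM in cKO replicate 2 limits what its zeros show.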
